A study of Mus musculus with 2 samples.

Results

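The cells described here are endothelial cells (ECs) of the normal mouse mammary gland that carried transcripts of at least 3 of 6 genes, Aqp7, Cldn15, Chchd10, Spaar, Hrct1 and Gstt2, and of fewer than 3 of another 6, Car8, Timp4, Lpl, Rassf9, Tcf15 and Bmp6. They are called Aqp7/Cldn15 cells below. Of 9047 barcodes in the library of normal endothelial cells (NECs), 6924 held at least 200 genes and under 10% mitochondrially encoded transcripts, 5200 of these lacked any transcript of Ptprc, Myh11, Epcam and Cspg4 (genes of leukocytes, smooth muscle, epithelium and pericytes), and 4940 of those carried Cdh5 or Pecam1, which encode adhesion proteins of endothelial junctions. Among these 4940 ECs, 244 were Aqp7/Cldn15 cells, a share of 4.94% (exact 95% interval 4.35 to 5.58). The remaining 4696 ECs served as the comparison.

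The series holds 2 single-cell RNA libraries, one of CD45-/CD31+ cells sorted from pooled normal mammary glands (strain C57BL/6, age 6-8 weeks in the sample record) and one of the same sort from pooled E0771 tumors, a mouse mammary carcinoma line grown in the mammary gland. The sample record of the tumor library gives neither strain nor age, and the methods of the study describe female mice with a C57BL/6 background throughout. The title and the series design call the normal library NECs, whereas its cell type and tissue fields read TECs and E0771 mammary, and the title was followed. With 1 library a condition and the animals pooled, there was no replicate and no test was made. Every interval is a 95% interval of counting error alone and says nothing of the spread between animals. A unique molecular identifier (UMI) counts as 1 captured transcript, and a level is the number of UMIs of a gene per 1000000 UMIs of a cell group (CPM). The normal library held 40914092 UMIs with a median of 2973 a barcode. The Aqp7/Cldn15 cells held 1104288 UMIs with a median of 3224 a cell, and the other ECs held 16222933 with a median of 2963. Only 3 barcodes occurred in both libraries, and 0 of them was an Aqp7/Cldn15 cell.

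Capillary ECs of fatty tissues pass fatty acids from the blood to the parenchyma. Lipoprotein lipase, held at the vessel wall by GPIHBP1, frees fatty acids from circulating lipoproteins, CD36 takes them up, FABP4 carries them in the cytosol and PLIN2 coats the droplets in which they are stored. PPARγ is a nuclear receptor that is activated by fatty acids and binds DNA together with RXR at paired AGGTCA hexamers. Aqp7 encodes a channel for water and glycerol and Cldn15 a pore-forming claudin. Chchd10 encodes a mitochondrial protein, Spaar a small polypeptide that acts on amino acid sensing at the lysosome, and Gstt2 a glutathione S-transferase.

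The promoters of the lipid genes discussed below were searched for the hexamer AGGTCA on both strands, in the 250 bases before each annotated RefSeq start (GRCm38.p6). Promoter sequence was at hand for 6 of 9 genes. Gpihbp1, Fabp4 and Angptl4 had no entry. Cd36, Plin2 and Pparg held the hexamer, and Acsl1, Cyp4b1 and Nr1h3 did not. The matches are shown 5′ to 3′ with the hexamer in capitals, because each of these genes was higher in the Aqp7/Cldn15 cells than in the other ECs.

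Cd36, chr5:17836109-17836134, strand opposite to the gene, 222 bases before a RefSeq start inside the annotated gene: tgaaaatctcAGGTCAtaaagtgcag

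Plin2, chr4:86670262-86670287, strand opposite to the gene, 212 bases before a RefSeq start: tgtctgacttAGGTCAggggtcctga

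Pparg, chr6:115361106-115361131, strand of the gene, 22 bases before a RefSeq start: ccgccgcctcAGGTCAgagtcgcccc

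Pparg, chr6:115362330-115362348, strand of the gene, 3 bases before another RefSeq start: ggacgcgaggAGGTCAaga

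The hexamer occurred in 4 of the 10 promoters of these genes, 2 of them of Pparg, and in 14.0% of all 32851 mouse promoters of the same length. The genes were chosen as higher in these same data, so the 2 shares are a description. Both Pparg matches also lie inside the annotated gene. A match describes the letters and is no sign of binding. The direct repeat AGGTCANAGGTCA, searched on both strands, was in 0 of the 10 and in 0.0335% of all promoters.

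The cells were chosen by which of the 12 genes of the rule had a UMI, so the levels of these genes are a description. Aqp7 (chr4:41033074-41048139 in GRCm38, minus strand) stood at 346.8 CPM in the Aqp7/Cldn15 cells and 131.4 CPM in the other ECs, and 194 of the 244 cells (79.5%) held a UMI of it. Cldn15 (chr5:136966616-136975858, plus strand) stood at 149.4 against 35.8 CPM and was seen in 122 cells (50.0%). Chchd10 stood at 212.8 against 38.7 CPM, Spaar at 148.5 against 37.1, Hrct1 at 206.5 against 54.2 and Gstt2 at 204.7 against 59.0. No single gene marked all members, and Chchd10 was seen in the smallest number of them, 93 cells (38.1%). Most members sat at the edge of the rule. Exactly 3 of the 6 genes were seen in 154 cells, 4 in 69, 5 in 19 and all 6 in 2. On the other gene set, 21 members had 0 of the Car8 genes, 77 had 1 and 146 had 2. Just outside the rule were 430 ECs with 2 Aqp7 genes and 167 with 3 or more Aqp7 genes but also 3 Car8 genes.

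**Figure D1:**
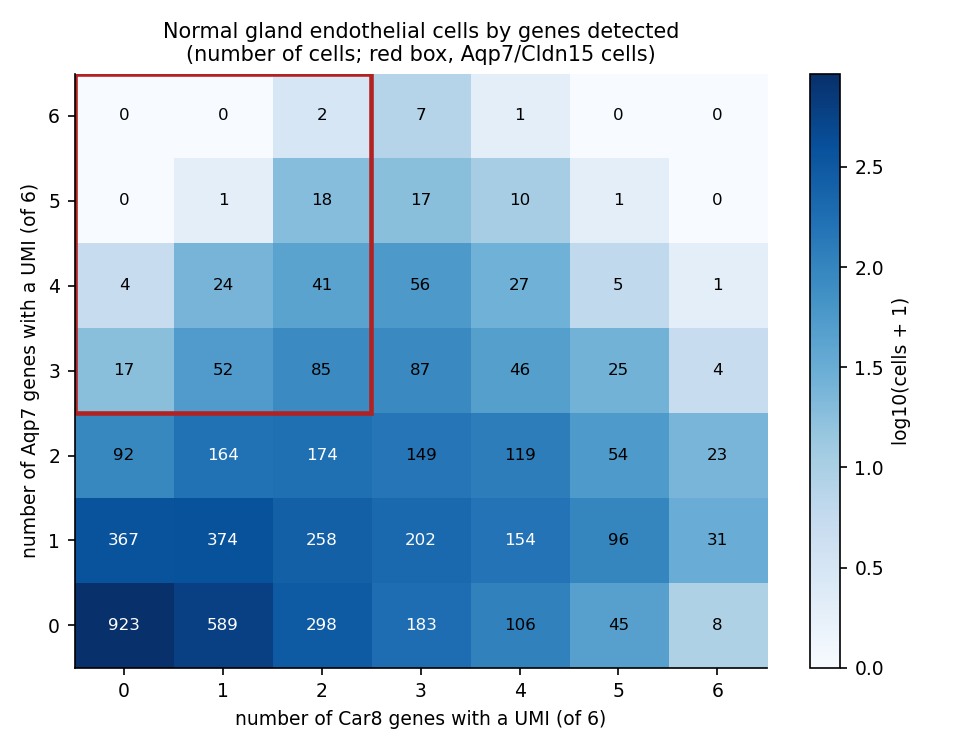
Number of normal gland ECs by how many of the 6 Car8 genes (horizontal axis) and of the 6 Aqp7 genes (vertical axis) had a UMI, with colour as log10 of cells + 1. The red box holds the 244 Aqp7/Cldn15 cells, most of them in its lowest line and its right column, next to 287 ECs to its right that had 3 or more genes of both sets.

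The share of members differed with depth, without a steady trend. Over 5 equal bins of UMIs a cell the share was 3.54%, 4.56%, 5.26%, 3.94% and 7.40%, the last in cells of 4700 to 29715 UMIs (5.84 to 9.21). When 1900 UMIs were drawn from each cell that had as many, 131 of 3831 cells met the rule (3.42%, 2.87 to 4.05), and 87 of these 131 were members at full depth. Membership of a given cell therefore depended in part on which transcripts were captured.

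Cells just inside and just outside the threshold differed as groups in genes that the rule did not use. Angptl4, which encodes a secreted inhibitor of lipoprotein lipase, stood at 241.5 CPM in ECs with 2 Aqp7 genes, 280.0 CPM in members with 3 and 513.2 CPM in the 90 members with 4 or more. Fabp4 followed the same order with 26850, 28720 and 49270 CPM, and Cldn5, a claudin of endothelial tight junctions, with 1144, 1389 and 2249 CPM. Plvap, which encodes the diaphragm protein of fenestrae and caveolae, ran the other way with 1667, 973.9 and 534.7 CPM. Other values fell and then rose, namely Aqp1 (1078, 916.6 and 1161 CPM) and Rgcc (1004, 958.9 and 1236 CPM). The sum of the capillary genes listed below did the same (10690, 9416 and 11330 CPM). Median depth was alike in the 3 sets (3079, 3251 and 3212 UMIs), but the share of their cells in the 2 clusters that held most members (1 and 9, described below) was 37.9%, 52.6% and 72.2%, and the part of this in the differences was not tested. For Angptl4 the intervals of cells with 2 and with 3 genes overlapped, and those with 4 or more lay above both.

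**Figure D2:**
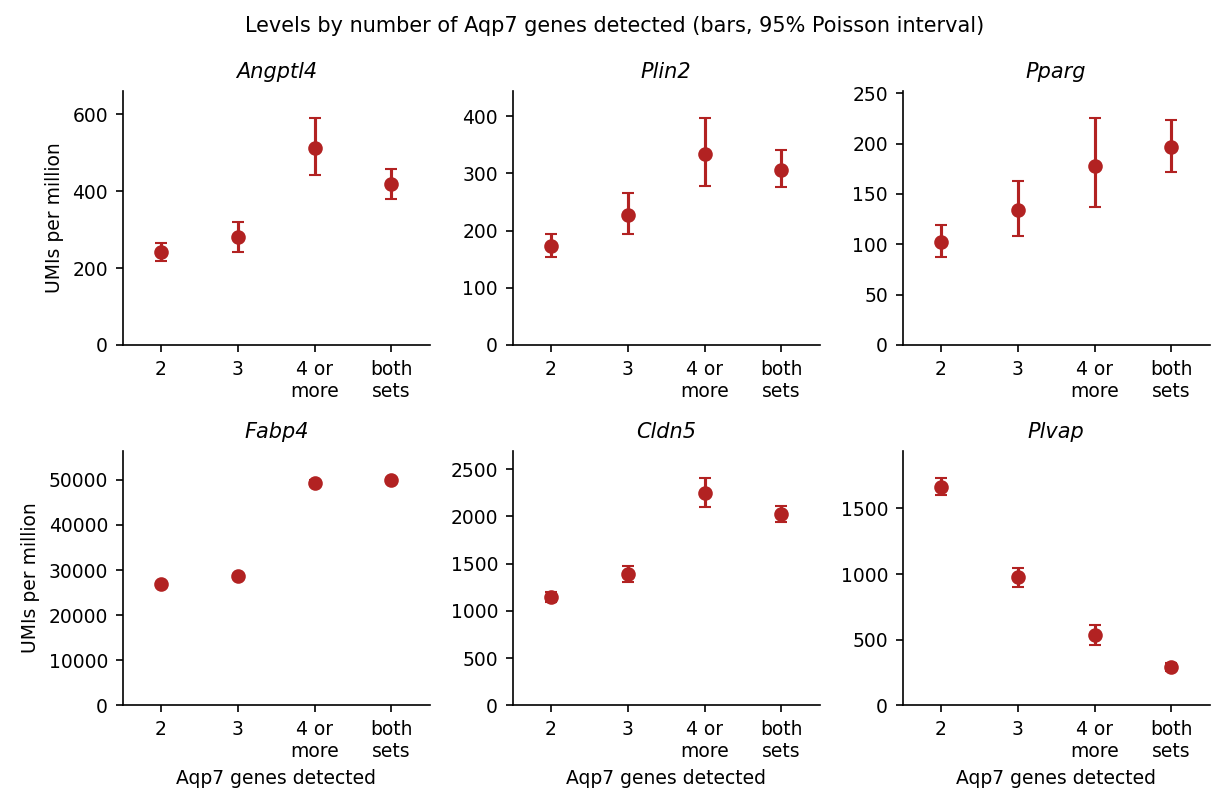
Level (CPM, with 95% Poisson intervals) of 6 genes outside the rule in ECs with 2, 3 and 4 or more Aqp7 genes and fewer than 3 Car8 genes, and in the 287 ECs with 3 or more of both sets. Plvap ran from 1667 down to 292.7 from left to right, and the other 5 genes were higher in the 2 right-hand groups than in cells with 2 genes.

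To see where the members lay among all ECs, the 4940 cells were clustered with the 12 genes of the rule left out. Of 17 clusters, cluster 1 held 117 of the 244 members (48.0%) and cluster 9 held 29 (11.9%). Cluster 1 was led by Car3, Cfd, Tmem182 and Gpr160, followed by the 6 Aqp7 genes, and cluster 9 by Mt2, Car3, Cfd and Tmem182 and, further down, Angptl4 and Plin2. Members were 18.7% of the cells of cluster 1 and 13.8% of those of cluster 9. The other 98 members were spread over 14 clusters and were deeper, with a median of 5130.5 UMIs against 2686 for the 146 in clusters 1 and 9. They held 673024 of the 1104288 member UMIs, and the 146 held 431264. As levels are sums of UMIs, the levels and counts given for all members rest more on the 98 than on the 146. No doublet was removed, and the part of doublets among these 98 cells was not tested. Of these 98, 25 were in cluster 3, led by Gkn3 and Gja5 and holding the arterial gene Bmx, and 18 were in cluster 14, led by the mitotic genes Pimreg, Hmmr and Pbk. A further 8 were in cluster 16, with Ccl11, Fst and the stromal collagen gene Col1a1, and 5 were in cluster 13, with Fut7 and Glycam1 of high endothelial venules. Cluster 0, led by Car8, Timp4 and Lpl, held 5. Cluster 11, led by salivary secretory genes at a median of 822 UMIs, held 0 of its 119 cells.

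**Figure D3:**
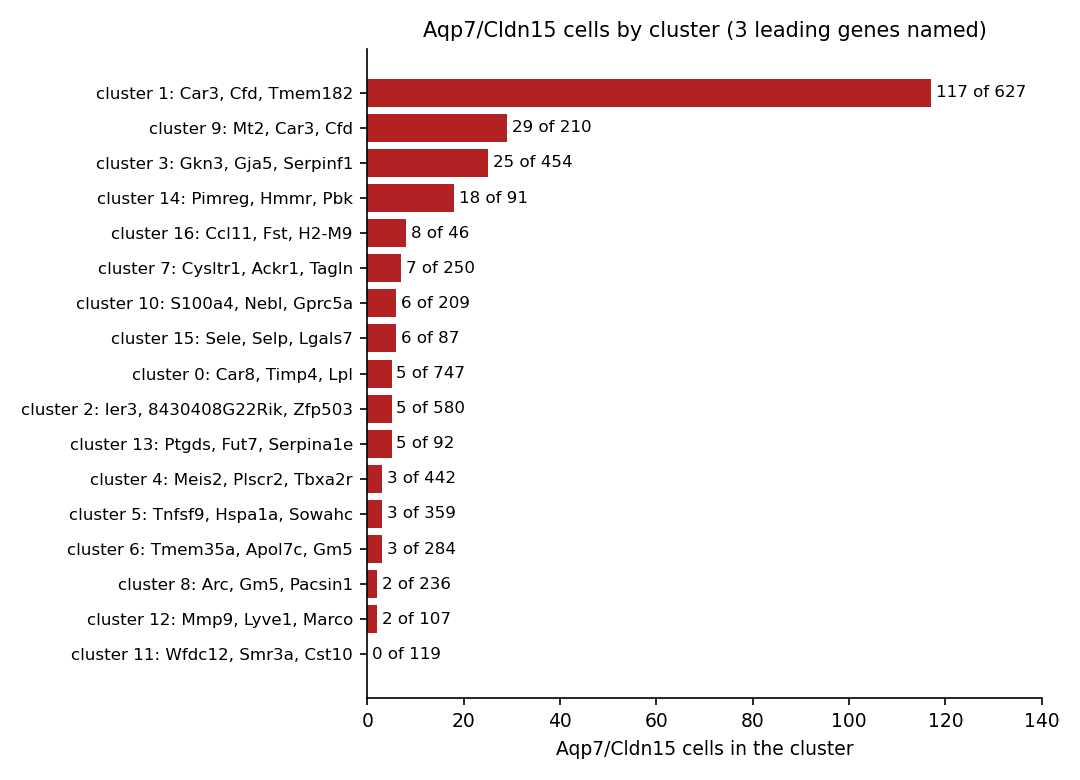
Number of Aqp7/Cldn15 cells in each of 17 clusters of normal gland ECs, with the total of the cluster and its 3 leading genes by fold. Cluster 1 (117 of 627) and cluster 9 (29 of 210) held most of them, and clusters led by arterial, mitotic and stromal genes held most of the rest.

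On capillary markers the Aqp7/Cldn15 cells stood near the other ECs and above the arterial and venous cells. Per cell, the median sum of the list was 11310 CPM in members, 11730 in all other ECs, and 5988 and 4915 in comparison cells with 3 or more of 6 arterial or venous genes. The 17 capillary genes summed to 10060 CPM in the Aqp7/Cldn15 cells and 11210 CPM in the other ECs, a log2 ratio of -0.16 (-0.18 to -0.13), which came to 0.00 when each cell was weighted equally. Of the 8253 genes with at least 10 CPM over all ECs, 3.71% were at least 1.5-fold higher in the Aqp7/Cldn15 cells and 9.21% at least 1.5-fold lower, with a median log2 ratio of -0.04 over all of them. As the rule chose the cells within this contrast, these shares and the counts beside them are descriptive. By that measure 1 of 16 capillary genes was higher, Fscn1, which encodes an actin-bundling protein (198.3 against 77.4 CPM), and 3 were lower, Emcn (805.0 against 1214), Fmo2 (114.1 against 262.4) and Ramp3, a subunit of adrenomedullin receptors (24.5 against 120.7). The other 12 lay between, and the median log2 ratio over the 16 was -0.08. Of these 12, Btnl9 (552.4 against 384.2 CPM), Car4 (384.9 against 274.7) and Cd300lg (820.4 against 644.4) were higher by less than 1.5-fold. Cxcl12, the most abundant of the list, was lower by less than 1.5-fold (1319 against 1891 CPM). In the 146 members of clusters 1 and 9 the list reached 12760 CPM (log2 ratio 0.19), close to the 12510 CPM of the ECs that met the mirror rule for Car8. In that contrast with all other ECs 5 of 16 genes were higher and 3 lower, where 8.03% and 19.2% of all genes were. By this list the name of a capillary cell fitted the members of clusters 1 and 9 better than the 98 elsewhere. The median sum a cell was 12700 CPM in the former and 8965 CPM in the latter. The other ECs of clusters 1 and 9 stood at 12530 CPM, so the list did not set the members apart there. Car3 and Cfd, among the leading genes of both clusters, are adipocyte genes and are taken up below.

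Arterial genes were 0 higher and 7 lower of 18 (Gja5, Gja4, Bmx, Stmn2, Alpl, Tgfb2 and Eln), with a log2 ratio of the sum of -0.19 (-0.25 to -0.12). Venous genes were 1 higher and 7 lower of 16, with a ratio of -0.26 (-0.33 to -0.20). The higher one was Bst1, and the leukocyte adhesion genes Sele, Selp and Vcam1 and the chemokine-binding Ackr1 were among the lower. Against the Car8 cells described below the venous list went the other way, with 8 higher and 2 lower of 16 and a ratio of 0.44 (0.36 to 0.51). Its sum was 1389 CPM in Car8 cells and 941.4 CPM in the members of clusters 1 and 9. Against the other ECs, the arterial and venous ratios of the members of clusters 1 and 9 were -1.29 and -1.26. Most arterial and venous transcripts of the whole group thus came from the 98 members elsewhere. The list of high endothelial venules showed this most plainly. Its sum was 18970 CPM in the members against 6016 CPM in the others, 3 of 4 genes higher (Glycam1, Fut7 and Ccl21a), yet in the members of clusters 1 and 9 it was 176.2 CPM, a log2 ratio of -5.09. Of the member UMIs of Glycam1, a sulfated ligand for lymphocyte homing, 97.5% lay in the 5 cells of cluster 13 and 42% in a single cell. Lymphatic genes were 1 higher (Ccl21a, 99.7% of its UMIs in cluster 13) and 2 lower (Lyve1 and Flt4) of 3, and the lymphatic regulator Prox1 was under the level needed to be counted. The pan-endothelial list was 0 higher and 2 lower of 17, with Flt1, a decoy VEGF receptor, at 1110 against 2045 CPM and Clec14a at 151.2 against 327.7.

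Genes of fatty acid uptake and storage were higher in the Aqp7/Cldn15 cells, 7 of 21 counted ones by at least 1.5-fold. The 28 genes summed to 48040 CPM against 28470 CPM, a log2 ratio of 0.75 (0.74 to 0.77). Of the others 1 was lower and 13 lay between, and the median log2 ratio over all 21 was 0.31. Fabp4 alone made up most of the sum. Per cell, the median of the list was 57750 CPM in the members (middle 50% of cells 35920 to 85790), 24930 in the other ECs, 21160 in the arterial and 25230 in the venous comparison cells. It was 38160 in Car8 cells, 66150 in cells with 3 or more genes of both sets and 72630 in the other ECs of clusters 1 and 9, groups that are described below. Among the members the median was 79260 in the 146 of clusters 1 and 9 and 31640 in the 98 elsewhere. Taking Fabp4 first (chr3:10204088-10208576, minus strand), its level was 35650 CPM in members and 19790 CPM in the others, a log2 ratio of 0.85 (0.83 to 0.86).

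Cd36, the fatty acid translocase (chr5:17781690-17888801, minus strand), stood at 3241 against 1889 CPM (log2 ratio 0.78, 0.73 to 0.83). In cells thinned to 1900 UMIs it was seen in 93.1% of members and 75.2% of the others, against 98.0% and 82.2% before thinning. Gpihbp1, the anchor of lipoprotein lipase, stood at 1911 against 1162 CPM (0.72, 0.65 to 0.78). After thinning Gpihbp1 was seen in 86.2% of members, 65.4% of the others and 23.7% of the venous comparison cells. Both genes were thus widespread among ECs, and both the level and the share of cells with a UMI differed. In the 83 thinned cells of cluster 13, whose median before thinning was 5866 UMIs, Cd36 was seen in 12.1%, Gpihbp1 in 31.3% and Fabp4 in 60.2%. Stray RNA in droplets and expression cannot be told apart in these shares.

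Angptl4 (chr17:33773750-33781830, minus strand) showed the largest ratio of the list, with 358.6 CPM in members (324.1 to 395.7) and 120.3 in the others (115.0 to 125.7), which gave a log2 difference of 1.58 (1.42 to 1.73). It was seen in 146 members (59.8%) and 18.3% of the others, or 40.9% and 13.3% after thinning, and in 3.61% of the thinned cells of cluster 13. No single cell held more than 4.80% of its member UMIs. Plin2, the coat protein of lipid droplets (chr4:86648386-86670060, minus strand), followed with 263.5 against 99.9 CPM (1.40, 1.22 to 1.58), seen in 57.8% and 23.7% of cells or 38.9% and 15.7% after thinning. Cyp4b1, a cytochrome P450 that hydroxylates fatty acids, stood at 294.3 against 138.4 CPM (1.09, 0.92 to 1.26). Acsl1, which couples fatty acids to coenzyme A, was low in both groups at 30.8 against 17.0 CPM (0.86, 0.30 to 1.37). The 1 lower gene was Slc27a3, an acyl-CoA synthetase, at 38.0 against 65.7 CPM. Mgll, the monoglyceride lipase, was higher by less than 1.5-fold, at 1376 against 1138 CPM.

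Among 12 counted lipid transcription factors 2 were higher and 0 lower. Pparg (chr6:115360951-115490399, plus strand) stood at 148.5 CPM in members (126.7 to 173.1) and 71.7 in the others (67.6 to 75.9), or 1.05 on the log2 scale (0.81 to 1.29), and was seen in 38.5% and 18.7% of cells or 24.6% and 12.1% after thinning. In cluster 13 it was seen in 0 of 83 thinned cells, which allows a share of cells with a UMI of up to 3.61% by a floor of 3 counts and 4.35% by the exact interval, and its level at full depth there was 7.84 CPM. Nr1h3, the oxysterol receptor LXRα, stood at 30.8 against 12.9 CPM (1.26, 0.69 to 1.79). Over all ECs of a cluster it was highest in cluster 16, at 141.0 CPM against 31.8 in cluster 1 and 20.4 in cluster 9. Ppara was at 0 UMIs in the members. Epas1, the most abundant of the list, was 577.7 against 624.7 CPM, and the sum of the list had a log2 ratio of 0.05 (-0.02 to 0.13). Within this list the difference was thus confined, at 1.5-fold, to the genes of those 2 nuclear receptors.

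**Figure D4:**
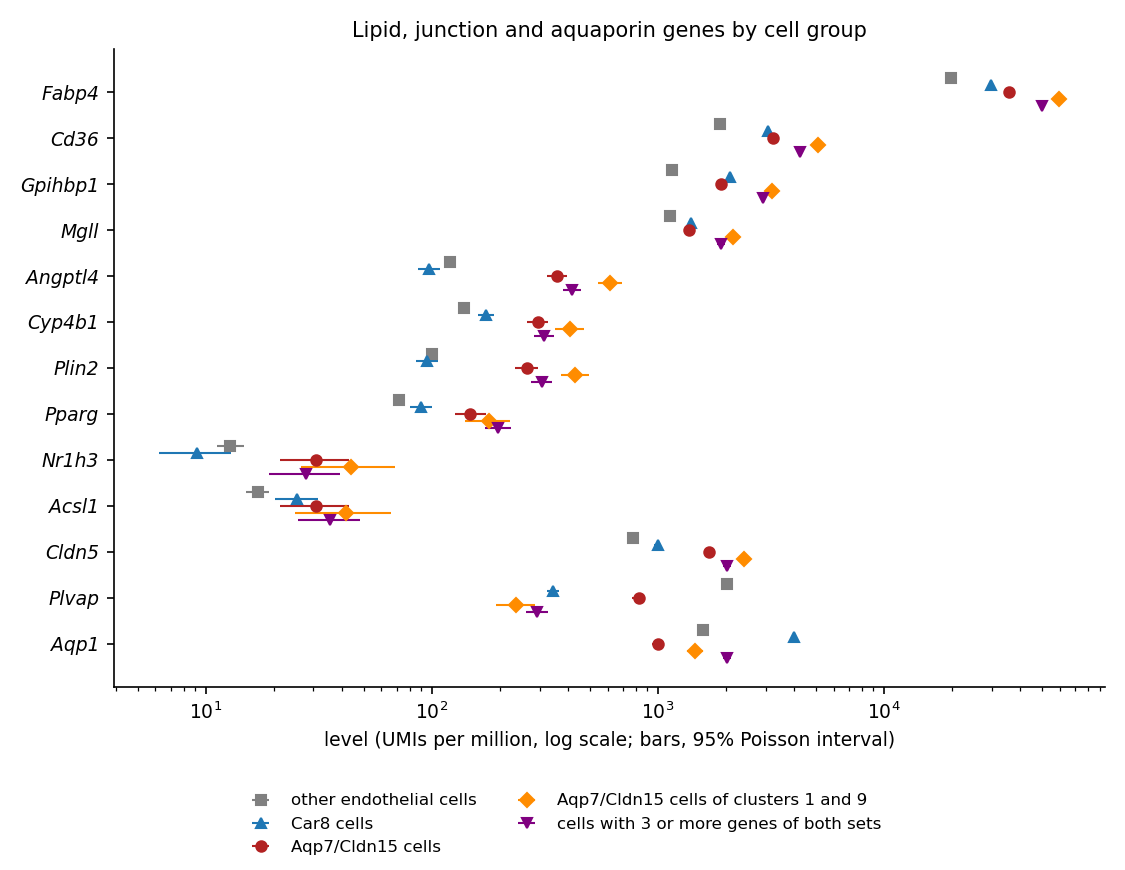
Level (CPM on a log axis, with 95% Poisson intervals) of 13 genes in the other ECs, the Car8 cells, all Aqp7/Cldn15 cells, those of clusters 1 and 9, and the 287 cells with 3 or more genes of both sets. For Angptl4, Plin2 and Pparg the Car8 cells lay near the other ECs and the remaining groups lay higher, whereas for Cd36 and Gpihbp1 the Car8 cells lay near the Aqp7/Cldn15 cells.

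Fatty acid oxidation was 2 higher and 0 lower of 17, with a log2 ratio of the sum of 0.33 (0.25 to 0.41). The higher genes encode enzymes of mitochondrial β-oxidation, Hadhb (177.5 against 107.3 CPM) and Acadvl (78.8 against 51.1). Within clusters 1 and 9 the ratio of the sum was -0.01. Of 38 nuclear OXPHOS genes 0 were higher or lower, with a sum of 10950 against 10420 CPM, and of 13 mitochondrially encoded genes 0, with 40790 against 40200 CPM. Among MICOS and CHCHD genes, the family of Chchd10, 1 of 11 was higher (Apool) and Chchd2 stood at 1060 against 1051 CPM. Glutathione S-transferase and antioxidant genes, the family of Gstt2, were 1 higher and 2 lower of 25, with the heme oxygenase gene Hmox1 at 46.2 against 25.9 CPM and Gstm2 and Nqo1 lower. In the v-ATPase and amino acid sensing list, to which Spaar relates, 0 of 23 were higher or lower, with a log2 ratio of -0.05 (-0.12 to 0.01).

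The families of the other 2 leading gate genes each had one dominant endothelial member. Aqp1, the water channel of ECs, stood at 998.8 CPM in the members and 1587 CPM in the others (log2 ratio -0.67, -0.76 to -0.58), but at 0.09 when the rule was applied to thinned cells, and was seen in 53.3% and 52.6% of cells. It was the 1 lower gene of 3 counted aquaporin and glycerol genes, and Aqp3 and Aqp8 were at 0 UMIs in the members. Among claudins and tight junction genes Cldn5 (chr16:18776847-18778262, plus strand) was the 1 higher of 10, at 1679 against 775.5 CPM (1.11, 1.04 to 1.19), seen in 84.4% and 47.1% of cells or 75.9% and 41.1% after thinning. Lsr, of tricellular junctions, with 1 UMI in the members, and Jam3 (111.4 against 184.3 CPM) were lower, and Cldn1 and Ocln were at 0 UMIs. Of 10 genes of fenestrae and caveolae 2 were lower and 0 higher. Plvap (chr8:71497765-71511752, minus strand) stood at 825.9 against 2016 CPM (-1.29, -1.38 to -1.19), and Ehd4 at 381.2 against 897.6 CPM, while Cav1, the caveolar coat gene, was 1234 against 1141 CPM. Cldn5 was also high in the arterial-led cluster 3, at 2578 CPM, so that its level was not particular to clusters 1 and 9 (2038 and 2774 CPM).

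Lists of other endothelial programs are read against the 3.71% of all genes that were higher and the 9.21% that were lower. Glucose and amino acid transport was 0 higher and 4 lower of 15, namely Slc6a6, Slc9a3r2, the lactate carrier gene Slc16a1 (26.3 against 80.1 CPM) and the prostaglandin carrier gene Slco2a1 (89.7 against 186.3). Of 12 VEGF, Tie and apelin genes Apln (38.9 against 11.3 CPM) and Angpt2 (41.7 against 16.9) were higher and Flt1, Flt4 and Nrp1 lower. Of 10 Notch genes 1 was lower, the ligand gene Dll1. Of 17 BMP and TGF-β genes 1 was higher (Tgfbr3) and 5 lower (Bmpr2, Acvrl1, Smad6, Smad7 and Tgfb2). Shear response and tone was 2 higher (Adora2a and Adm) and 6 lower of 16, among them Thbd, which encodes the anticoagulant thrombomodulin (151.2 against 340.6 CPM), and Edn1, the endothelin gene (38.0 against 90.1). Within clusters 1 and 9 the log2 ratios of Adm (-0.63), Slco2a1 (0.17), Dll1 (0.49) and Smad7 (0.20) had the opposite sign. Against Car8 cells, described below, so did those of Slco2a1 (1.39) and Tgfb2 (0.11). Basement membrane genes were 1 higher and 0 lower of 14, the higher one being Nid2, whose log2 ratio turned negative after thinning (-2.67), without clusters 13, 14 and 16 (-0.57) and within clusters 1 and 9 (-0.70), with Sparc, a collagen-binding matrix protein gene, at 2801 against 1979 CPM.

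The sums of the MHC and interferon lists differed little. MHC genes were 0 higher and 1 lower of 15 (H2-Ab1), with a log2 ratio of the sum of -0.05 (-0.08 to -0.02). Interferon response genes were 0 higher and 2 lower of 20, Irf1 and Irf8, with a ratio of -0.21 (-0.25 to -0.18). Of 12 genes tied to the questions of the study, chemokines, adhesion molecules and DNA methyltransferases among them, Cxcl9, a chemokine that draws CXCR3+ T cells, was higher (299.7 against 155.5 CPM, log2 ratio 0.95, 0.78 to 1.11), as was the mitotic Top2a, and Vcam1, Sele and Irf8 were lower. Within clusters 1 and 9 the ratio of Irf8 was 0.49 and that of Top2a -0.41, and against Car8 cells that of Sele was 0.79. Immediate early and heat shock genes, which respond to tissue dissociation, were 0 higher and 9 lower of 18 (sum 12520 against 17990 CPM), with Ier3 at 833.1 against 1875 CPM. Cell cycle genes were 5 higher and 1 lower of 8 (sum 459.1 against 255.6 CPM), but in the members of clusters 1 and 9 their log2 ratio was -1.20, and 93.5% of the member UMIs of Top2a lay in the 18 cells of cluster 14.

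**Figure D5:**
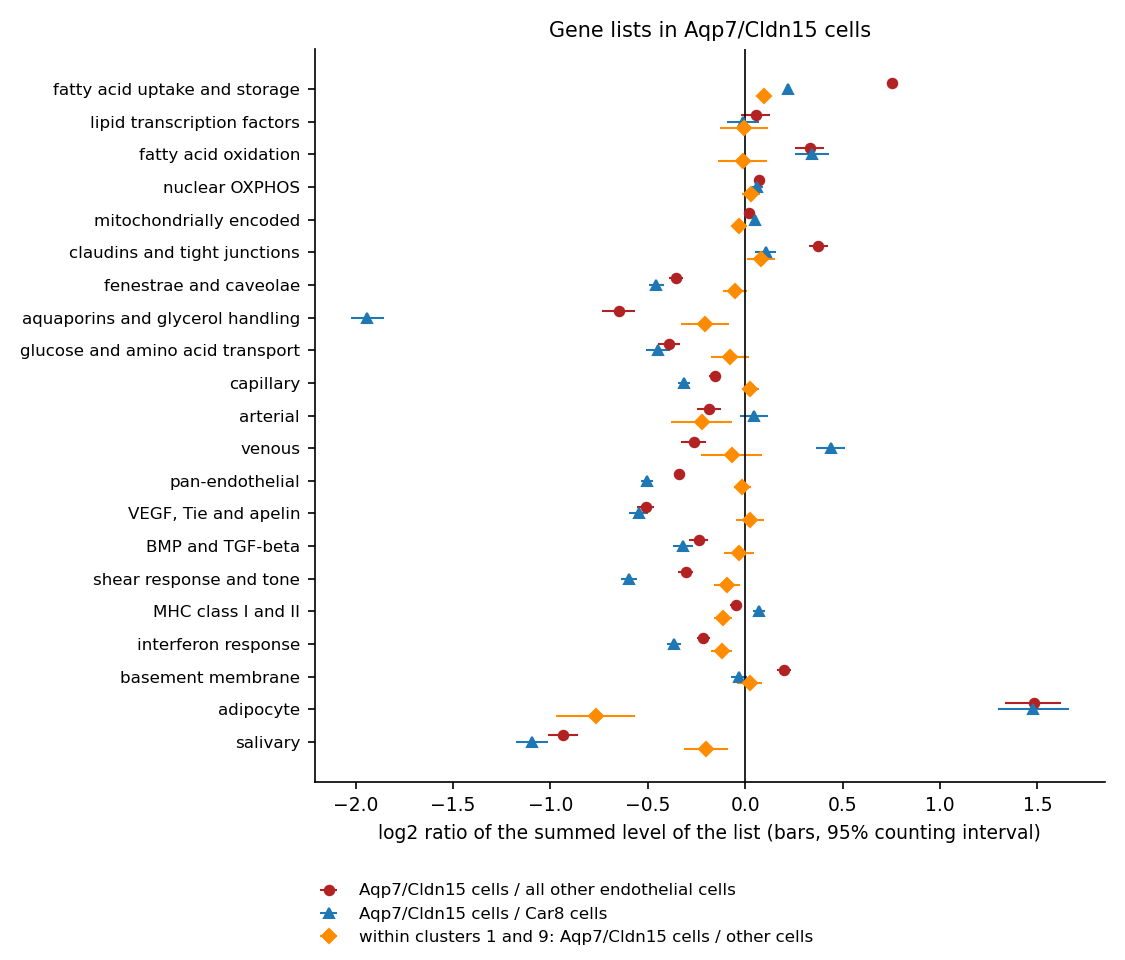
Log2 ratio of the summed level of 21 gene lists, with 95% counting intervals, for all Aqp7/Cldn15 cells against all other ECs (red), against Car8 cells (blue), and for members against other cells within clusters 1 and 9 (orange). Fatty acid uptake and storage stood at 0.75, 0.22 and 0.10 in that order, and most orange points lay nearer to 0 than the red ones.

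The single genes with the largest ratios, among those with at least 50 CPM in one group and 20 UMIs in each, were in large part the property of few cells. Coch led with a log2 ratio of 3.97, but 98.8% of its member UMIs came from 1 cell, and Cck followed at 3.47 with 77.0% from 1 cell. All member UMIs of the follistatin gene Fst were in cluster 16 and all of the mitotic Ube2c in cluster 14, and of Lgals1 63.5% were in cluster 14. Ccl21a, Glycam1 and Pglyrp1 owed 99.7%, 97.5% and 87.5% to cluster 13. Other genes among the leading ones were less confined to few cells. Slc39a8, a zinc and manganese importer, stood at 55.2 against 12.9 CPM (2.09, 1.66 to 2.51, in 32 members), and Npr3, the clearance receptor of natriuretic peptides, at 71.5 against 19.3 CPM (1.89, 1.52 to 2.25, in 49). Myh10, a non-muscle myosin heavy chain, stood at 75.2 against 23.3 CPM in 53 members, with 43.4% of its member UMIs in cluster 14. The orphan receptor gene Gpr160 stood at 74.3 against 25.2 CPM in 65. With Angptl4, Cfd and Top2a these made up the 15 leading higher genes.

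Of the 15 leading lower genes, Col13a1, a transmembrane collagen, stood at 42.6 against 219.2 CPM (-2.37, -2.81 to -1.95), Ramp3 at 24.5 against 120.7 (-2.30) and Emp2 at 23.5 against 113.7 (-2.27). Esm1, the endothelial proteoglycan endocan, stood at 82.4 against 307.7 CPM (-1.90), the matrix Gla protein gene Mgp at 123.2 against 414.3 (-1.75) and Igfbp3 at 128.6 against 376.6 (-1.55). Of the Mgp UMIs that the members did hold, 85.3% were in the 8 cells of cluster 16. Ces2e, Pcp4l1, Cd24a, Plaur, Slc16a1, Ptn, Gm5, Rnd1 and the salivary gene Smr3a completed the list, with log2 ratios from -1.96 to -1.51. Against Car8 cells the ratios of Col13a1 (0.20), Esm1 (0.38), Ces2e (0.69) and Gm5 (1.62) were positive, and within clusters 1 and 9 those of Emp2 (0.76), Pcp4l1 (0.17), Ces2e (0.59) and Gm5 (0.17), with Mgp at 0.0028.

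Markers of other cells were measured beside these results. All 4 counted adipocyte genes were higher, the secreted factor D gene Cfd (186.5 against 57.9 CPM), the carbonic anhydrase gene Car3 (138.6 against 50.9), Scd1 (33.5 against 17.6) and Fasn (18.1 against 9.74). The 13 genes summed to 427.4 CPM against 153.2 CPM, a log2 ratio of 1.48 (1.34 to 1.62), with Cfd the most abundant. Of the defining adipocyte genes, Adipoq was seen in 10 members (14.5 against 4.44 CPM), Retn stood at 22.6 against 6.66 CPM, Cidec at 7.24 against 2.03, Plin1 had 1 UMI, and Lep and Acvr1c were at 0. In the members of clusters 1 and 9 against all other ECs, the 4 counted genes were again higher and the ratio was 1.79 (1.59 to 1.99). The fatty acid list stood at 1.45 in that contrast. Within clusters 1 and 9 the adipocyte list stood at 531.0 CPM in the members and 903.6 CPM in the other cells (-0.77, -0.97 to -0.56). Among the lipid genes there, Angptl4 was 614.5 and 500.4 CPM and Pparg 178.5 and 225.8 CPM, so these did not share 1 order. The part of adipocyte RNA in the lipid genes was not tested.

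Pericyte and smooth muscle genes were 2 higher (Rgs5 and Abcc9) and 1 lower (Acta2) of 4, with sums of 417.5 against 282.4 CPM and Rgs5, the most abundant, at 163.9 against 103.1. The ratio of Abcc9 turned negative with under 5% mitochondrial UMIs (-0.13) and without clusters 13, 14 and 16 (-1.62), and that of Rgs5 against Car8 cells (-0.33). In the members of clusters 1 and 9 the sum was 180.9 CPM. Fibroblast genes were 0 higher and 1 lower of 4 (Dcn, with Clec3b at 0 and Gsn the most abundant, sum 107.8 against 120.0 CPM). Epithelial genes were 0 higher and 1 lower of 4 (Krt18, with Krt14 at 0, sum 108.7 against 136.8 CPM). Salivary genes were 0 higher and 6 lower of 8, with 1266 against 2422 CPM and Bpifa2 at 541.5 against 1073. The 1 counted skeletal muscle gene, Mylpf, was 12.7 against 15 CPM, and 7 of 12, Ckm among them, were at 0. No immune gene reached the level needed to be counted, 8 of 12 were at 0 and the sum was 16.3 against 22.5 CPM. Red cell genes were 0 higher or lower of 4. Hbb-bs stood at 1731 against 1363 CPM, but it was seen in 14 members only and 1 cell held 1584 of its 1912 member UMIs. Without the top cell on each side its log2 ratio went from 0.35 to -1.99. The part of these cells in the results was not tested.

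A further comparison was with the 1170 ECs that met the mirror rule, 3 or more Car8 genes and fewer than 3 Aqp7 genes (Car8 cells, median 2513.5 UMIs). In this contrast 7.89% of all genes were at least 1.5-fold higher in the Aqp7/Cldn15 cells and 11.1% lower, and of the fatty acid genes 5 were higher and 2 lower of 21. The sum of that list was 48040 against 41310 CPM (log2 ratio 0.22, 0.20 to 0.23). Cd36 (3241 against 3064 CPM) and Gpihbp1 (1911 against 2078) differed little, and Fabp4 stood at 35650 against 29930. Angptl4 (358.6 against 97.6 CPM), Plin2 (263.5 against 95.6), Nr1h3 (30.8 against 9.14), Pparg (148.5 against 89.7) and Cldn5 (1679 against 997.5) were higher. Over all members Cd36 and Gpihbp1 thus stood near the level of Car8 cells. The genes of the lipase inhibitor, the droplet coat and the nuclear receptors were lower in Car8 cells. In the members of clusters 1 and 9 alone the uptake genes were above the Car8 cells, with Cd36 at 5106 CPM, Gpihbp1 at 3209 and Fabp4 at 59230. Over all members Aqp1 was lower than in Car8 cells, at 998.8 against 4004 CPM. Plvap was 825.9 against 344.2 CPM, higher than in Car8 cells although lower than in the other ECs as a whole. In the 146 members of clusters 1 and 9 it was 236.5 CPM, below the Car8 cells, and in the 98 elsewhere 1204 CPM.

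The 287 ECs with 3 or more genes of both sets (5.81% of all, median 3399 UMIs) were kept out by the rule, yet had like levels of the lipid genes. Angptl4 stood at 417.7 CPM in them, Plin2 at 306.5, Pparg at 196.3, Fabp4 at 49990 and Cldn5 at 2024. Each of these was above the level of all Aqp7/Cldn15 cells. Of the 287, 136 lay in cluster 1, 39 in cluster 9 and 60 in cluster 0. Aqp1 was 2020 CPM, between the values of the Aqp7/Cldn15 and the Car8 cells.

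Restricting both sides to clusters 1 and 9, where 146 members stood beside 691 other ECs (medians 2686 and 2402 UMIs), left small differences in the lipid genes. Of the 21 fatty acid genes 1 was at least 1.5-fold higher in the members and 1 lower. Over all genes the shares were 8.15% and 12.9%, both above those of the contrast with all other ECs, with fewer UMIs on each side. The list summed to 77650 against 72600 CPM (log2 ratio 0.10, 0.08 to 0.11). Fabp4 was 59230 against 55410 CPM, Cd36 5106 against 4754, Angptl4 614.5 against 500.4 (0.30, 0.09 to 0.49) and Plin2 431.3 against 340.5 (0.34, 0.10 to 0.58). Pparg was 178.5 against 225.8 CPM (-0.34, -0.71 to 0.01), Cldn5 2402 against 2273 (0.08, -0.02 to 0.18) and Plvap 236.5 against 197.0 (0.26, -0.07 to 0.58). The other cells of clusters 1 and 9 thus shared most of the lipid profile, and the rule picked a minority of the cells there. Slc39a8 kept a wider gap, at 120.6 against 58.6 CPM (1.04, 0.54 to 1.53). The members of these clusters against all other ECs had 11 of 21 fatty acid genes higher and 2 lower where 8.03% and 19.2% of all genes were, and a log2 ratio of the sum of 1.45. Only the 12 genes of the rule were left out of clustering, so the lipid genes helped to form these clusters and this contrast is a description.

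In the tumor library 312 of 704 barcodes passed the same filters and 14 of them met the rule (4.49%, 2.48 to 7.41). These 14 had a median of 24709.5 UMIs, and none held a UMI of Aqp7, which was seen in 1 of the 312 cells (0.114 against 145.1 CPM over the normal ECs). Thinned to 1900 UMIs, 0 of 289 cells met the rule, which allows a share of up to 1.04% by a floor of 3 counts and 1.27% by the exact interval, against 3.42% of the normal ECs at that depth. Fabp4 was 1160 CPM over the tumor ECs and 20800 CPM over the normal ECs, Cd36 129.8 and 1975, and Pparg 13.8 and 76.6. Angptl4 (178.1 and 135.5 CPM) and Plin2 (174.2 and 110.3) were higher in the tumor library, and Gpihbp1 (995.5 and 1210) was lower. The kept tumor cells outside the rule had a median of 18499.5 UMIs, against 2976.5 in all kept normal ECs. After the other filters 1 UMI of Cdh5 or Pecam1 sufficed to count a cell as an EC. The part of non-endothelial cells among the 312 in these levels was not tested. With a single library on each side, the tumor and the library cannot be told apart.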

How the data were processed

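Cell Ranger was used by the authors for read mapping (version not given in the sources used here) and Seurat for the later filtering of cells, and the submitters' processing notes name the build mm10. The values deposited by the authors are raw UMI counts per gene and barcode, before that filter, with 17641 genes in the normal and 15644 in the tumor table, and no cell annotation was used. Counts were read with Python 3.11.15, numpy 2.4.6, scipy 1.17.1 and pandas 2.3.3. Scrublet in scanpy 1.11.5 called 0 of 6924 cells as doublets, so its calls marked none and no doublet was removed. Why it called none was not tested. Levels were UMIs summed over cells per 1000000, with exact Poisson, Clopper-Pearson and conditional binomial 95% intervals (counting error only, checked on simulated data), and a floor of 3 counts for shares of 0. For shares at equal depth, cells were thinned to 1900 UMIs with a fixed seed. Clusters were made in R 4.3.3 with Seurat 5.3.0 (4000 variable genes, 20 components, resolution 0.8). The cells, the comparison groups and the 36 gene lists were chosen with earlier results of these data known. Gene positions are from the GENCODE annotation of GRCm38 and promoters from RefSeq. Genes were counted in a list at a pooled 10 CPM. Named were the 15 leading genes in each direction and, of each list, 2 to 4 genes with the highest level or largest ratio, and others were named after their values were seen. Alternatives changed the filters, the rule, the depth, the scaling and the comparison group.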

Additional observations from a re-analysis of the deposited data

Results flagged for a closer look

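Some cells that were removed for transcripts of other lineages (Ptprc, Myh11, Epcam or Cspg4) also met the remaining criteria. Of 806 removed cells with a UMI of Cdh5 or Pecam1, 51 (6.33%, 4.75 to 8.24) had 3 or more Aqp7 genes and fewer than 3 Car8 genes. They were singled out because cells of the same pattern occur outside every comparison above. Their share was within counting error of the 4.94% among the kept ECs (4.35 to 5.58) and of the 7.40% (5.84 to 9.21) in the deepest bin of these, which is nearer to their median of 8812 UMIs. The part of depth and of doublets in this share was not tested.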

How the results depend on the processing

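No paired analysis was possible because there was 1 library a condition and no result came from a test. Of 75 alternative values for the 5 main quantities 35 moved by less than their interval or 1.5 times and 40 by more. Leaving out 3 clusters, leaving out the top cell of each gene and the comparison within clusters 1 and 9 were added after the data were seen. The share of Aqp7/Cldn15 cells, 4.94%, became 1.82% with 4 or more genes, 10.8% without the exclusion by Car8 genes, 3.91% without Chchd10 and 3.42% after thinning. In the same order the log2 ratio of the fatty acid list, 0.75, became 1.16, 1.16, 0.84 and 1.35. It was 0.77 with under 5% mitochondrial UMIs, 0.72 with Cdh5 required, 0.79 without the top 5% of Scrublet scores, 0.98 as a mean over cells, 0.77 without mitochondrial and ribosomal genes in the total, 0.22 against Car8 cells, 1.01 without the clusters led by venule, cell cycle and stromal genes (13, 14 and 16), 0.73 without the top cell of each gene and 0.10 within clusters 1 and 9. The capillary list, -0.16, became 0.026 with 4 or more genes, 0.0016 without the exclusion, 0.10 after thinning, -0.23 with under 5% mitochondrial UMIs, 0.00027 as a mean over cells, -0.31 against Car8 cells, -0.011 without the 3 clusters, -0.20 without the top cells and 0.026 within clusters 1 and 9, so its sign was not settled. The 306 higher and 760 lower genes became 755 and 1510 with 4 or more genes, 932 and 1871 after thinning, 55 and 235 at 50 CPM, 2216 and 1549 with no minimum, 69 and 232 at 2-fold and 194 and 1181 without the top cells. The higher genes were 651 against Car8 cells and 595 of 7989 within clusters 1 and 9, where a gene had to reach 10 CPM in these clusters. Of 70 named genes past 1.5-fold that could be followed there, 15 kept their direction past it. Log2 ratios that changed sign within clusters 1 and 9 were Acadvl -0.072, Adm -0.63, Car3 -0.65, Ccl21a -2.22, Ces2e 0.59, Cfd -0.98, Dll1 0.49, Ehd4 0.057, Emp2 0.76, Gja5 2.17, Glycam1 -0.10, Gm5 0.17, Hadhb -0.10, Irf8 0.49, Lgals1 -0.97, Mgp 0.0028, Nid2 -0.70, Pcp4l1 0.17, Pip 0.28, Plvap 0.26, Pparg -0.34, Slco2a1 0.17, Smad7 0.20 and Top2a -0.41. Against Car8 cells these were Ces2e 0.69, Col13a1 0.20, Ehd4 0.64, Esm1 0.38, Gm5 1.62, H2-Ab1 0.033, Ier3 0.015, Lyve1 3.20, Plvap 1.26, Rgs5 -0.33, Sele 0.79, Slco2a1 1.39 and Tgfb2 0.11. After thinning they were Aqp1 0.086, Ccl21a -4.01, Cenpf -1.06, Glycam1 -3.62, Nid2 -2.67, Pglyrp1 -1.31 and Top2a -0.31. With 4 or more genes they were Ccl21a -6.91, Glycam1 -5.79 and Pglyrp1 -2.95, without the 3 clusters Abcc9 -1.62, Ccl21a -3.24, Nid2 -0.57 and Pglyrp1 -0.24, with under 5% mitochondrial UMIs Abcc9 -0.13, without Chchd10 Coch -3.03 and without the top cells Coch -1.74. The causes of these changes were not tested.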

Other observations

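Beyond the lipid genes, the 146 Aqp7/Cldn15 cells of clusters 1 and 9 were high in metallothioneins, zinc- and copper-binding proteins that are induced by metals and stress. Mt1 stood at 1382 CPM in them against 316.5 CPM in all other ECs and 194.7 CPM in Car8 cells, and Mt2 at 403.5 against 97.2 CPM. Over all 244 members Mt1 was 791.5 CPM. Mt1, Mt2 and Cxcl9 were among the leading genes of cluster 9 and were not left out of clustering. Their levels in members of these clusters against all other ECs are thus a description. Within clusters 1 and 9 the other ECs had 1059 CPM of Mt1 and 367.7 CPM of Mt2, so both genes were not particular to the members there. By cluster, Mt1 was highest in cluster 16, led by Ccl11 and Fst, at 2077 CPM, followed by 1762 CPM in cluster 9 and 768.7 CPM in cluster 1. Msmp, which encodes a small secreted protein, stood in the members of clusters 1 and 9 at 88.1 against 9.43 CPM in all other ECs and 35.0 CPM in the other cells of these clusters.

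Cxcl9 stood at 612.2 CPM in the members of clusters 1 and 9, 538.5 CPM in the other ECs there and 99.6 CPM in the 98 members elsewhere, against 174.3 CPM in Car8 cells. It was also high in other clusters, at 459.7 CPM in cluster 15, led by Sele and Selp (seen in 33.7% of thinned cells), and 718.0 CPM in cluster 12, led by Mmp9 and Lyve1 (9.47%), beside 501.4 CPM in cluster 1 (44.5%) and 645.0 CPM in cluster 9 (39.8%).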
